A study of Mus musculus with 12 samples.

Results

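The expression of 10 glycolysis genes, Slc2a1, Hk1, Hk2, Pfkl, Pfkp, Aldoa, Pgk1, Eno1, Pkm and Ldha, was followed in whole kidney tissue of 12 wild-type C57BL/6 mice, with 4 mice and 1 RNA-sequencing library per mouse in each of 3 groups. The genes were chosen by name, with earlier results of these data known, and each name matched 1 of the 22053 rows of the deposited table. Control mice ate a diet without adenine between 8 and 16 weeks of age and received PBS by weekly i.p. injection. CKD mice ate a 0.2% adenine diet between 8 and 16 weeks of age, which injures the tubules and induces chronic kidney disease, and received the same PBS injections. CKD+Fe mice ate the adenine diet over the same weeks and received iron dextran i.p. every week at 0.5 g/kg. Whole kidney RNA averages over all cell types, so a level could not be assigned to tubule cells or to leukocytes, and in bulk tissue fewer cells of a type and less RNA per cell cannot be told apart. Values are FPKM, fragments per length of transcript relative to all mapped fragments of the library, so levels of different genes can be compared per length.

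Glycolysis splits glucose into pyruvate in the cytosol with a net gain of ATP. Slc2a1 codes for the glucose transporter GLUT1, hexokinases (Hk1, Hk2) trap glucose as glucose 6-phosphate, phosphofructokinases (Pfkl, Pfkp) commit it to breakdown, aldolase A (Aldoa) cleaves the hexose, phosphoglycerate kinase 1 (Pgk1) makes ATP, enolase 1 (Eno1) forms phosphoenolpyruvate, pyruvate kinase M (Pkm) releases pyruvate with ATP, and lactate dehydrogenase A (Ldha) reduces pyruvate to lactate. The hexokinase, phosphofructokinase and pyruvate kinase steps are practically irreversible and are where flux is controlled, whereas the steps in between run in either direction. The healthy proximal tubule burns fatty acids and makes glucose, and it uses GLUT2 (Slc2a2), while distal nephron segments, injured tubule cells and activated leukocytes are known for higher glycolysis.

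Several genes of this pathway are textbook targets of the hypoxia-inducible factors, whose binding core is ACGTG or GCGTG. The 250 bases before each RefSeq transcription start (GRCm38.p6) were therefore searched for both letter strings on both strands, with overlapping matches counted each. All 10 genes matched the RefSeq table, with 17 start sites in all. At least 1 of the windows held a match in 10 of 10 genes, ACGTG in 6 genes and GCGTG in 6 genes. Among all 27025 genes of that table, 41.5% had a match in at least 1 window, 18.5% for ACGTG and 30.9% for GCGTG. By window, 14 of the 17 held a match, where 38.6% of all windows did. Some windows of the same gene overlap, base composition was not matched, and whether the matches exceed that background was not tested. The windows of 4 genes are shown because they belong to a pair of genes that were higher in CKD mice (Hk2, Pfkp) and to a pair that were not (Pgk1, Ldha). Each reads 5′ to 3′ in the direction of the gene, and capitals mark ACGTG or GCGTG or their reverse complements. Hk2 lies at chr6:82774455-82774704 on the minus strand, Pfkp at chr13:6648772-6649021 on the minus strand, Pgk1 at chrX:106186850-106187099 on the plus strand, and Ldha, at the first of 2 listed starts, at chr7:46845554-46845803 on the plus strand.
Hk2 upstream window: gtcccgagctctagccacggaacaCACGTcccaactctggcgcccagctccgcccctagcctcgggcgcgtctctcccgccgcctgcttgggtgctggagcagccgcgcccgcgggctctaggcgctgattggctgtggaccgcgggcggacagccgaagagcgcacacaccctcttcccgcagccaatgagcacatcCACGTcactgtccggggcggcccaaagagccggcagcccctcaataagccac
Pfkp upstream window: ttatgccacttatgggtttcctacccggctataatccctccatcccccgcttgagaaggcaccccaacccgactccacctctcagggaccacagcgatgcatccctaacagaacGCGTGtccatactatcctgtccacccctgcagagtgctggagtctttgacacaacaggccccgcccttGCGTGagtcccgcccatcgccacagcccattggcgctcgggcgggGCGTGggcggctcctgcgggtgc
Pgk1 upstream window: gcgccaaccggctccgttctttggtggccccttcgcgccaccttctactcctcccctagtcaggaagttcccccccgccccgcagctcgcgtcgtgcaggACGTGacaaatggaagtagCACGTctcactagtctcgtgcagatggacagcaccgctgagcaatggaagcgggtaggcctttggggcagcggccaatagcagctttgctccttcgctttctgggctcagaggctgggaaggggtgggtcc
Ldha upstream window: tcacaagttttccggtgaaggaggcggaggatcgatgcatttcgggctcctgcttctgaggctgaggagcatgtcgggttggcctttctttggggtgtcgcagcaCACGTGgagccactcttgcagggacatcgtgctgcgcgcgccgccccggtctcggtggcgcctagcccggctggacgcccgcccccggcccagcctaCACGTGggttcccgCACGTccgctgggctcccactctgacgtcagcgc
The Hk2 and Pgk1 windows each held 2 matches of ACGTG, the Pfkp window held 3 of GCGTG, and the Ldha window held 3 stretches with ACGTG, 2 of which read the same on both strands. Unlike for the other windows shown, the bases after this Ldha start were found in no GENCODE M21 transcript of the gene. The window at the second Ldha start held 0 matches of ACGTG and 1 of GCGTG. The place of Ldha among the 6 genes with ACGTG thus rests on the first start. A match is a description of the letters and no measure of binding.

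The libraries were of similar depth, estimated at 18300000 to 27000000 reads from the FPKM that 1 read was worth. The scale of the FPKM differed between groups: over the 13148 genes tested, the median difference between CKD and control mice was 0.50 on the log2 scale, and after rescaling each library by its median ratio to the other libraries it was -0.03. For the 10 genes, calls against control are therefore given on both scales. Values of other genes are as deposited unless stated. Markers of other cells moved as well. The summed FPKM of 14 leukocyte genes ran from 155 to 321 in control mice, from 2040 to 4300 in CKD mice and from 1950 to 4220 in CKD+Fe mice, with Lyz2, C1qb and C1qa the highest, and 12 of the 13 genes tested were higher in CKD mice. That of 10 injured tubule genes ran from 683 to 1000, from 12200 to 21800 and from 8940 to 16000, led by Spp1, Clu and Lcn2, and all 10 were higher. Most of this sum was Spp1, at 425 to 687 FPKM in control and 9970 to 17700 in CKD mice. The median log2 difference of the 10 injured tubule genes was 3.8 in CKD mice. That of 10 proximal tubule genes ran from 68200 to 92300, from 1570 to 8410 and from 2600 to 11000, led by Kap and Slc34a1, and 9 of the 10 were lower. Most of this sum was Kap, at 64400 to 89900 FPKM in control and 1030 to 7550 in CKD mice. The median log2 difference of the 10 proximal tubule genes was -1.96 in CKD mice. No gene of these 3 lists was at 0 in all mice, and the part of these shifts in the differences below was not tested. Erythroid, skeletal muscle and urothelial genes summed to at most 121, 4.49 and 24.9 FPKM in any mouse.

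In CKD mice as compared with control mice, Hk2, Pfkp and Pkm were higher on both scales, and Pgk1 was lower on both. Slc2a1 and Hk1 were higher on the deposited but not on the rescaled values. Pfkl did not pass the test, and Aldoa, Eno1 and Ldha were lower on the rescaled but not on the deposited values. By limma with Benjamini-Hochberg adjustment over all genes, 5 of the 10 genes were called higher and 1 lower at an adjusted p under 0.05 as deposited, where 54.6% of all genes tested were called higher and 13.3% lower. After rescaling, 3 were called higher and 4 lower, against 27.2% and 31.0% of all genes. The shares of the 10 genes called in each direction were thus close to those of the transcriptome as a whole on both scales. That did not hold with quantile normalization, where Slc2a1, Hk1, Hk2, Pfkp, Eno1 and Pkm were called higher and 0 members lower. Of the 13148 genes tested, 3060 were called higher and 3363 lower with that normalization. The median log2 difference of the 10 genes was 0.51 as deposited and -0.08 after rescaling.

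**Figure D1:**
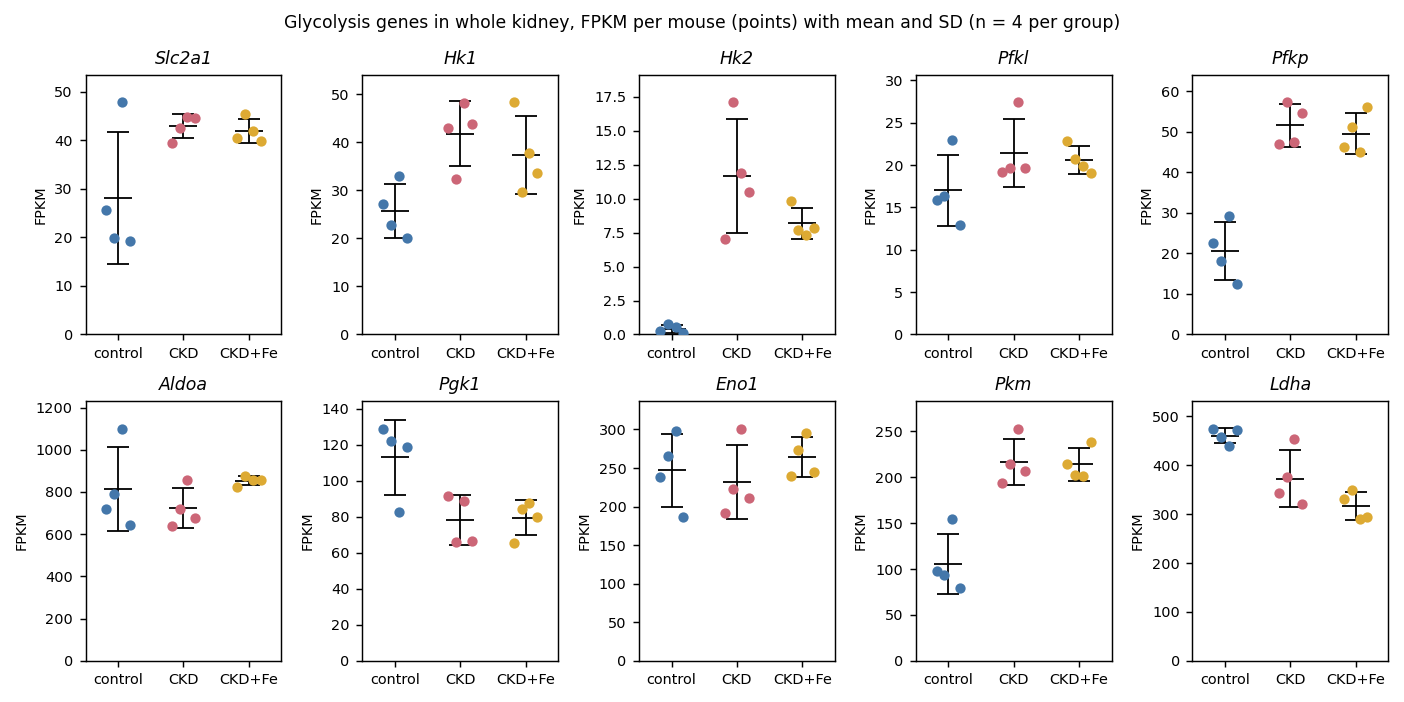
FPKM (y axis, linear from 0) of each of the 10 glycolysis genes in the 4 control, 4 CKD and 4 CKD+Fe mice. Points are mice, bars the mean and SD. The CKD and CKD+Fe mice sit above all control mice for Hk2, Pfkp and Pkm, and the 4 CKD+Fe mice sit below all control mice for Ldha.

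Of the 10 genes, Hk2 had the largest log2 difference between CKD and control mice on both scales. Hk2, the inducible hexokinase that binds mitochondria, lies at chr6:82725025-82774454 (GRCm38, minus strand). Its FPKM was 0.253, 0.754, 0.539 and 0.102 in control mice 1 to 4, 7.02, 17.1, 11.9 and 10.5 in CKD mice 1 to 4, and 9.81, 7.72, 7.31 and 7.87 in CKD+Fe mice 1 to 4. Every CKD and CKD+Fe mouse was thus far above every control mouse. Hk2 averaged 0.412 ± 0.291 FPKM without CKD, 11.7 ± 4.19 with untreated CKD and 8.18 ± 1.11 with iron (SD, n = 4 each), a ratio of 28.3 between CKD and control means. The control values rested on about 13 to 96 reads and the others on about 779 to 1988. Under 1 FPKM in every control mouse, Hk2 passed the filter of 1 FPKM in 4 or more mice only through mice with CKD. Without a filter it was also called higher in CKD mice (limma, adjusted p = 2.87e-06). On the log2(FPKM + 1) scale, which understates changes from so low a level, the difference was 3.13 ± 0.22 (SE, limma, adjusted p = 1.83e-07), with 2.81 after rescaling (adjusted p = 6.17e-07) and 4.66 with a pseudocount of 0.1. The highest Hk2 value, in CKD mouse 2, came with the highest leukocyte sum (4300) and injured tubule sum (21800) and the lowest proximal tubule sum (1570) of all 12 mice. Sums nearly as high came with lower Hk2 in CKD+Fe mouse 1 (leukocyte 4220, Hk2 9.81) and CKD mouse 4 (injured tubule 21200, Hk2 10.5). Whether Hk2 follows these sums was not tested.

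Hk1, the constitutive hexokinase, was already expressed in control kidney. It read 27.2, 22.8, 32.9 and 20.1 FPKM in control mice, 43.0, 32.3, 48.1 and 43.8 in CKD mice, and 48.3, 29.6, 37.7 and 33.5 in CKD+Fe mice. The groups overlapped, since control mouse 3 was above CKD mouse 2. Hk1 was 0.69 ± 0.18 higher in CKD mice on the log2 scale (adjusted p = 0.00484). The difference shrank to 0.09 after rescaling (adjusted p = 0.707) and was 0.46 with quantile normalization (limma, adjusted p = 0.0391).

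Slc2a1 read 25.6, 19.9, 47.8 and 19.2 FPKM in control mice, 39.5, 42.6, 44.8 and 44.5 in CKD mice, and 40.4, 45.4, 41.9 and 39.9 in CKD+Fe mice. Control mouse 3 was above every other mouse of the study, and the other 3 control mice were below all mice with CKD. The log2 difference between CKD and control was 0.69 ± 0.22 as deposited (adjusted p = 0.0134) and 0.09 after rescaling (adjusted p = 0.755). With quantile normalization it was 0.48, just within the threshold (limma, adjusted p = 0.0499). Leaving out control mouse 3 raised the deposited difference to 0.97. Control mouse 3 also had the highest control value of Hk1, Pfkl, Pfkp, Aldoa, Eno1 and Pkm and the lowest of Pgk1 and Ldha.

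Of the phosphofructokinases, Pfkp, the platelet-type subunit, was higher and Pfkl, the liver-type subunit, was not called. Pfkp read 22.7, 18.1, 29.3 and 12.4 FPKM in control mice, 47.0, 57.3, 47.4 and 54.8 in CKD mice, and 46.2, 51.2, 45.0 and 56.1 in CKD+Fe mice. No mouse with CKD was as low as the highest control mouse. The log2 difference was 1.34 ± 0.20 (adjusted p = 6.65e-05), and 0.74 after rescaling (adjusted p = 0.00607). Pfkl read 15.9, 16.4, 22.9 and 12.9 FPKM in control mice, 19.2, 19.6, 27.4 and 19.6 in CKD mice, and 22.8, 20.7, 19.9 and 19.1 in CKD+Fe mice. Its groups overlapped through control mouse 3. The log2 difference was 0.33 ± 0.17 as deposited (adjusted p = 0.0949) and -0.26 after rescaling (adjusted p = 0.207), and it passed the threshold without control mouse 3 (0.47, adjusted p = 0.0129).

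The enzymes of the reversible middle steps were not higher. Aldoa, the most abundant of the 10 transcripts, read 720, 790, 1100 and 645 FPKM in control mice, 637, 720, 855 and 677 in CKD mice, and 824, 878, 858 and 855 in CKD+Fe mice. Eno1 read 238, 265, 298 and 186 FPKM in control mice, 192, 223, 301 and 211 in CKD mice, and 240, 274, 295 and 245 in CKD+Fe mice. For both genes the 3 groups overlapped. The log2 difference between CKD and control was -0.15 ± 0.17 for Aldoa (adjusted p = 0.447) and -0.09 ± 0.17 for Eno1 (adjusted p = 0.655). After rescaling both were called lower, at -0.77 (adjusted p = 0.00245) and -0.71 (adjusted p = 0.00546), whereas quantile normalization gave 0.09 and 0.32, the latter called higher (adjusted p = 0.0472). The direction for these genes therefore depended on the scale chosen. Both, like Pgk1, Pkm and Ldha, have near-identical retrocopies in the mouse genome, and how their reads were split is not known.

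Pgk1 was the member called lower in CKD mice on the deposited scale. It read 129, 122, 82.6 and 119 FPKM in control mice, 91.8, 65.9, 88.9 and 66.6 in CKD mice, and 65.6, 84.5, 87.8 and 79.9 in CKD+Fe mice. The other 3 control mice were above all mice with CKD, and control mouse 3 lay among them. The log2 difference was -0.52 ± 0.17 (adjusted p = 0.0143), and -1.14 after rescaling (adjusted p = 0.000207), where no CKD mouse overlapped a control mouse. With quantile normalization it was -0.37 and not called (adjusted p = 0.0972).

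At the end of the pathway Pkm and Ldha parted. Pkm, whose spliced M1 and M2 forms are summed here in 1 value, read 98.3, 93.6, 154 and 79.3 FPKM in control mice, 194, 215, 253 and 207 in CKD mice, and 215, 203, 201 and 239 in CKD+Fe mice. All mice with CKD were above all control mice, and the log2 difference was 1.06 ± 0.18 (adjusted p = 0.00016), with 0.45 after rescaling (adjusted p = 0.0471). Ldha read 475, 459, 440 and 472 FPKM in control mice, 343, 376, 453 and 320 in CKD mice, and 331, 350, 291 and 294 in CKD+Fe mice. CKD mouse 3 alone among the mice with CKD reached into the control range. Its log2 difference was -0.32 ± 0.14, just short of the threshold (adjusted p = 0.0511), and it passed without CKD mouse 3 (-0.41, adjusted p = 0.00934), without control mouse 3 (-0.34, adjusted p = 0.0466) and after rescaling (-0.94, adjusted p = 0.000161). With quantile normalization it was 0.02. In all, 3 of the 10 genes had CKD mice that were all above the control mice and 0 had CKD mice all below, where 44.6% and 10.4% of all genes did so.

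**Figure D2:**
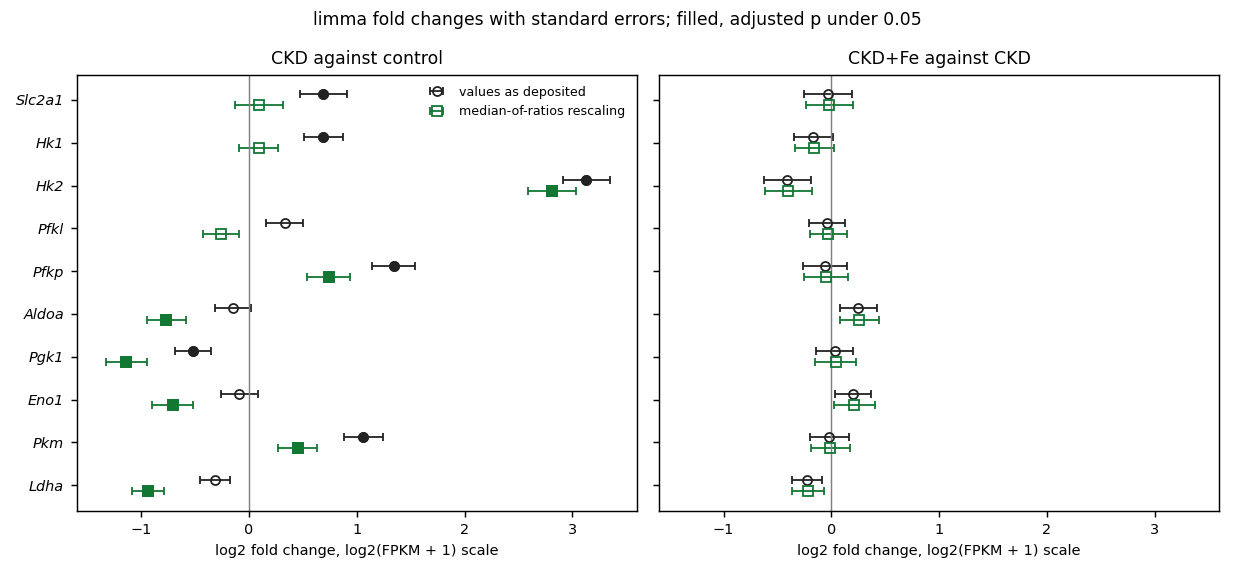
Log2 fold change with its SE (x axis, log2(FPKM + 1) scale) for the 10 genes in CKD against control mice (left) and CKD+Fe against CKD mice (right), as deposited (black circles) and after rescaling (green squares), with filled symbols for an adjusted p under 0.05. Hk2, Pfkp and Pkm stay above 0 on both scales at left, while no symbol is filled at right.

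Iron dextran was compared with no treatment among mice with CKD. No member was called in CKD+Fe as compared with CKD mice: 0 higher and 0 lower by limma, with 0 members at an unadjusted p under 0.05, where 0.00761% of all genes tested were called higher and 0.0% lower. The differences ran from -0.41 (Hk2) to 0.25 (Aldoa) on the log2 scale, with adjusted p from 0.886 to 0.999. The CKD+Fe and CKD mice overlapped for all 10 genes, where 1.35% of all genes did not overlap and were higher and 1.08% did not overlap and were lower. Hk2 averaged 8.18 FPKM with iron and 11.7 without, and CKD mouse 1 was below all 4 CKD+Fe mice. The log2 difference of Hk2 was -0.41 ± 0.22 and ran from -0.61 to -0.22 when each mouse was left out in turn. Aldoa averaged 854 ± 22.3 FPKM with iron and 722 ± 94.7 without (SD, n = 4 each), and Ldha 317 ± 28.8 and 373 ± 58.3, both within overlapping ranges. At this group size an undetected difference is no evidence of equal levels.

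CKD+Fe mice were also compared with the same control mice. Of the 10 genes, 5 were called higher (Slc2a1, Hk1, Hk2, Pfkp and Pkm) and 2 lower (Pgk1 and Ldha), where 54.4% and 11.0% of all genes were called. After rescaling, 2 were higher (Hk2, 2.42, and Pfkp, 0.69) and 4 lower (Aldoa, Pgk1, Eno1 and Ldha), where 26.1% and 29.3% of all genes were called. With quantile normalization Aldoa (0.33, adjusted p = 0.0288) and Eno1 (0.46, adjusted p = 0.0104) were instead called higher, so their direction turned with the scale. Pkm was 1.05 higher as deposited (adjusted p = 0.000211) and missed the threshold after rescaling (0.44, adjusted p = 0.0517). Ldha differed by -0.55 ± 0.14 on the log2 scale (adjusted p = 0.00312), and all 4 CKD+Fe mice were below all control mice. As deposited, 3 genes had CKD+Fe mice all above and 1 all below the control mice, where 50.4% and 9.82% of all genes did so. The calls of Slc2a1 (0.66), Hk1 (0.52) and Pgk1 (-0.49) each rested on single mice: Slc2a1 lost its call without control mouse 2 or 4, Hk1 without control mouse 2 or 4 or CKD+Fe mouse 1 or 3, and Pgk1 without control mouse 1 or 2 or CKD+Fe mouse 1, with adjusted p up to 0.0626, 0.08 and 0.064.

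The 10 transcripts spanned a wide range of levels per length. In control kidney the means fell from Aldoa (814) through Ldha (461), Eno1 (247), Pgk1 (113), Pkm (106), Slc2a1 (28.1), Hk1 (25.7), Pfkp (20.6) and Pfkl (17.0) to Hk2 (0.412). In CKD kidney the order was Aldoa (722), Ldha (373), Eno1 (232), Pkm (217), Pgk1 (78.3), Pfkp (51.6), Slc2a1 (42.9), Hk1 (41.8), Pfkl (21.4) and Hk2 (11.7). Pgk1 and Pkm, and Slc2a1, Hk1, Pfkp and Pfkl, had overlapping ranges in control mice. In CKD mice Pkm was above Pgk1 in every mouse, while Eno1 and Pkm, Pfkp and Hk1, and Slc2a1 and Hk1 overlapped. The sum over the 10 genes was 1570 to 2210 FPKM in control mice, 1610 to 2130 in CKD mice and 1840 to 1940 with iron, ranges that overlapped.

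Several steps have more than 1 isozyme, so the share of a member within the summed FPKM of its family was computed in each mouse for 6 families, a measure that the scale between libraries does not touch. In CKD mice the shares of Slc2a1, Hk2 and Pfkp were above, and that of Eno1 below, those of all control mice. Hk2 made up 0.901%, 3.09%, 1.57% and 0.481% of hexokinase FPKM in control mice, 13.1%, 29.9%, 18.2% and 17.4% in CKD mice, and 14.6%, 18.0%, 14.1% and 17.1% in CKD+Fe mice. Pfkp averaged 37.3% of phosphofructokinase FPKM in control mice, 59.0% in CKD mice and 56.6% with iron. Eno1 averaged 98.4%, 94.3% and 93.2% of enolase FPKM. Slc2a1 made up 24.6%, 19.2%, 42.0% and 16.3% of the FPKM of the 4 glucose transporters in control mice and 43.6%, 53.4%, 57.3% and 43.6% in CKD mice. Each of these 4 shares gave an exact two-sided permutation p of 0.0286 in CKD against control, the smallest that 70 arrangements of 4 against 4 mice allow, and an adjusted p of 0.0643 over the 18 share comparisons (exact permutation test), so none passed 0.05 after adjustment. The shares of Pkm (88.7% in control and 91.0% in CKD mice) and Ldha (28.6% and 23.7%) overlapped. Between CKD+Fe and CKD mice, all 6 shares overlapped.

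The family sums show which isozyme the shares moved against. Summed hexokinase averaged 27.0, 59.3 and 52.0 FPKM, and summed phosphofructokinase 54.2, 87.4 and 87.5 FPKM, with Pfkm, the muscle-type subunit, at 16.5 ± 0.981, 14.3 ± 1.39 and 17.3 ± 0.859. Among glucose transporters, Slc2a2, the GLUT2 of the proximal tubule, averaged 68.2 FPKM in control mice, 32.6 in CKD mice and 43.1 with iron, a log2 difference of -1.05 ± 0.28 in CKD (adjusted p = 0.00409). Slc2a3, the GLUT3 of neurons and leukocytes, was 1.02 higher (adjusted p = 3.76e-05) but averaged only 1.65 FPKM in CKD, and Slc2a4, the insulin-responsive GLUT4, was at 13.4 and 10.5 FPKM (-0.32, adjusted p = 0.123). After rescaling, Slc2a4 was called lower in CKD mice (-0.9, limma, adjusted p = 0.000649). Summed lactate dehydrogenase was 1630, 1620 and 1540 FPKM, most of it Ldhb.

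**Figure D3:**
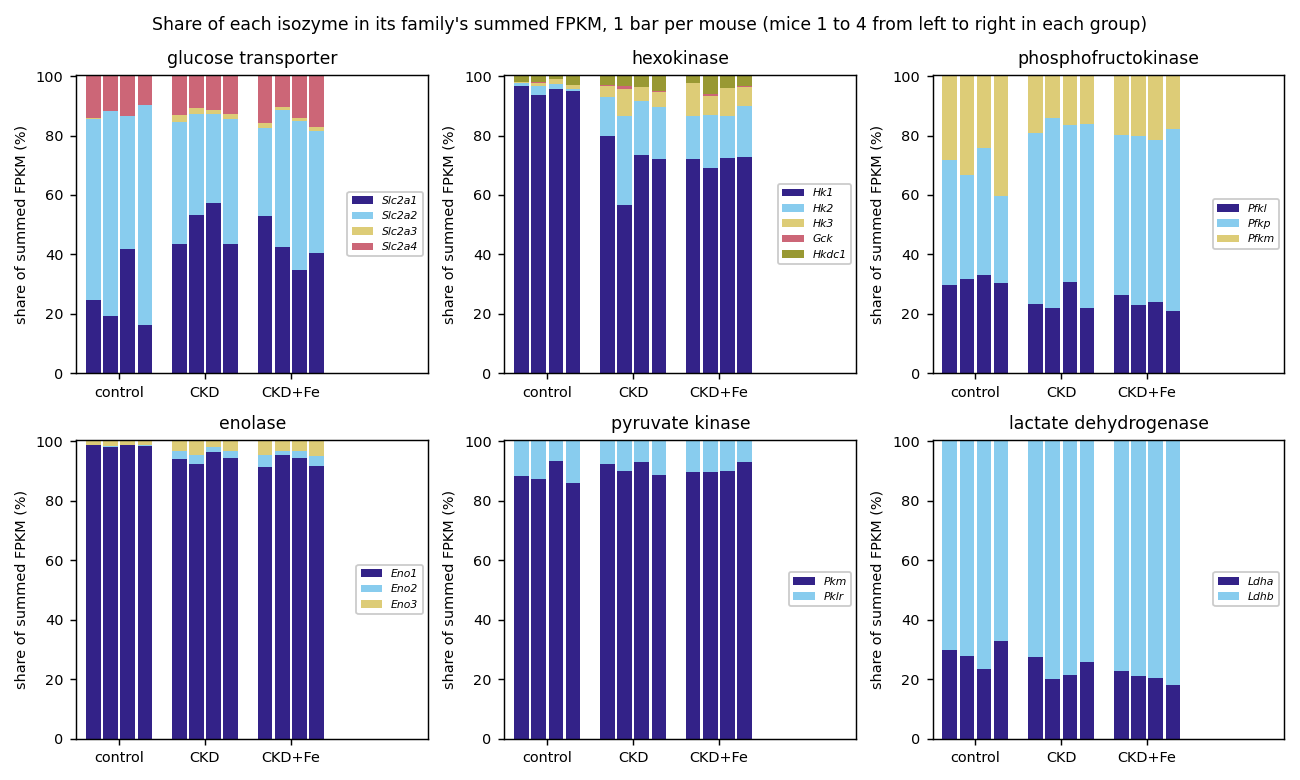
Share of each isozyme in the summed FPKM of its family (y axis, percent), with 1 stacked bar per mouse for 6 families. The Hk2 segment grows from an average of 1.51% (control) to 19.7% (CKD) and 15.9% (CKD+Fe), while Pkm averages 88.7%, 91.0% and 90.6%.

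The rest of the pathway was read from a list of 36 further genes, 34 of which were tested. In CKD as compared with control mice, 12 were called higher and 11 lower as deposited, where 54.6% and 13.3% of all genes were called. After rescaling, 10 were higher and 17 lower, where 27.2% and 31.0% of all genes were called. With quantile normalization 3 were higher and 12 lower, where 3060 and 3363 of the 13148 genes tested were called. The median log2 difference of the 34 genes was 0.07 as deposited, as compared with 0.50 over all genes. The genes called higher had low levels in control kidney, with means of at most 12.6 FPKM. This pattern was partly set by the filter of 1 FPKM in 4 or more mice. Slc2a3, Hk3 and Hkdc1 were under 1 FPKM in every control mouse and passed it only through mice with CKD. Among them were Eno2, the neuronal enolase (2.12), Hk3, the hexokinase of myeloid cells (1.70), Slc16a3, the lactate exporter MCT4 (1.70), Hkdc1, a hexokinase-like gene (1.09), Eno3, the muscle enolase (1.04), and Pklr, the pyruvate kinase of liver and erythrocytes (0.69). All 4 genes of the Pfkfb enzymes, which set the level of the phosphofructokinase activator fructose 2,6-bisphosphate, were higher, by 0.74 (Pfkfb1), 1.26 (Pfkfb2), 1.03 (Pfkfb3) and 1.09 (Pfkfb4). For Pfkfb1 and Pfkfb2 the CKD and control mice overlapped. Pfkfb2 read 2.3 FPKM in CKD mouse 3, within the control range of 1.88 to 2.94. Hk3 averaged 0.302 FPKM in control mice, 3.35 in CKD mice and 4.48 with iron, and Slc16a3 0.489, 3.72 and 2.77. Pfkfb1 (0.45, adjusted p = 0.0756) and Pklr (0.11, adjusted p = 0.581) were not called after rescaling.

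Apart from Slc2a2, the genes called lower stood at the middle steps and at the entry of pyruvate into mitochondria. Gapdh, the glyceraldehyde 3-phosphate dehydrogenase often used as a reference gene, averaged 1050 ± 238 FPKM in control and 577 ± 140 in CKD mice (SD, n = 4 each), -0.86 ± 0.19 on the log2 scale (adjusted p = 0.0013). Pgam2, the muscle-type phosphoglycerate mutase, was also lower (-0.86), as was Tpi1, the triose phosphate isomerase (-0.66 ± 0.15). The mitochondrial pyruvate carrier genes Mpc1 and Mpc2 were lower (-1.13 and -1.08), as were the pyruvate dehydrogenase kinases Pdk2 and Pdk3 (-1.06 and -0.84). Pdk1, another kinase of that complex, was higher by 1.24 ± 0.29 (adjusted p = 0.00201), with 18.5 FPKM in CKD and 6.59 in control mice, although CKD mouse 3 at 7.46 was within the control range. Each gene named here as lower was also lower after rescaling. In CKD+Fe as compared with CKD mice 0 of the 34 genes were called, and 3 had an unadjusted p under 0.05. Of the 13148 genes tested, 431 were higher and 359 lower at that unadjusted level. Set against control mice, 12 of the 34 were called higher with iron and 10 lower, where 54.4% and 11.0% of all genes were called. With quantile normalization 6 were higher and 12 lower, where 2605 and 2967 of the 13148 genes tested were called.

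**Figure D4:**
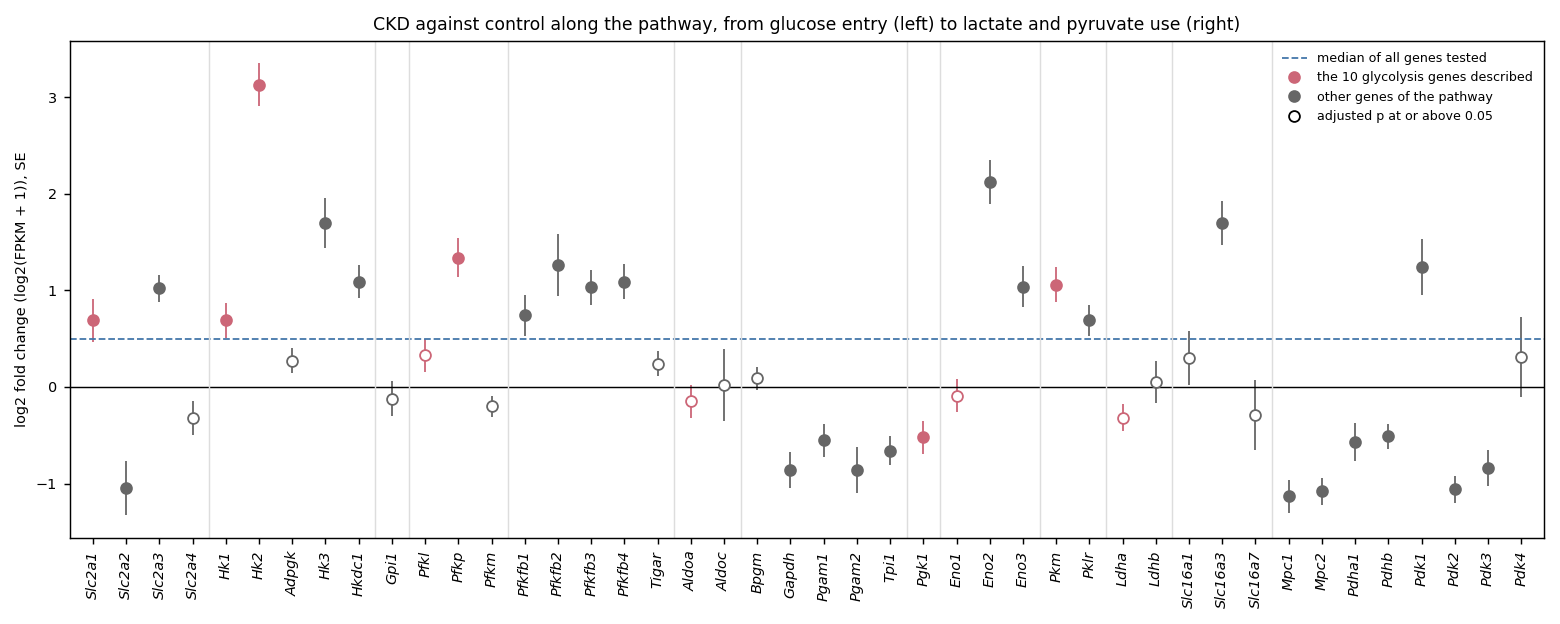
Log2 fold change, CKD as compared with control, with its SE (y axis, log2(FPKM + 1) scale) for the 10 genes (red) and 34 other genes of the pathway (grey), ordered by step along the x axis. Hk1, Hk2, Hk3, Hkdc1, the 4 Pfkfb genes and Pkm lie above the dashed median of all genes (0.50), with Hk2 at 3.13, while the middle steps from Tpi1 (-0.66) to Pgk1 (-0.52) and pyruvate entry lie mostly below 0. Among phosphofructokinases, Pfkl (0.33) and Pfkm (-0.2) lie below that median. Among enolases, Eno2 (2.12) and Eno3 (1.04) lie above it.

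Other targets of the hypoxia response were read beside the 10 genes. Of 10 such genes outside glycolysis, 1 was called higher in CKD as compared with control mice and 4 lower, where 54.6% and 13.3% of all genes were called, with a median log2 difference of -0.16. After rescaling, 1 was higher and 5 lower, where 27.2% and 31.0% of all genes were called. The genes called as deposited, named after their values were seen, were Kdm3a, a histone demethylase (1.46), and Car9, Egln1, Adm and P4ha1 (-0.84, -0.56, -0.42 and -0.51), which code for a carbonic anhydrase, an oxygen sensor, adrenomedullin and a collagen prolyl hydroxylase. In CKD+Fe as compared with CKD mice, 0 of the 10 were called and 1 had an unadjusted p under 0.05. At that unadjusted level 431 of the 13148 genes tested were higher and 359 lower.

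For the 3 members with the largest difference between CKD and control mice, the genes with the most similar pattern were ranked by Pearson r of log2(FPKM + 1) over the 12 mice. The mice share their 3 groups, which differ in many genes, so r describes likeness of pattern and carries no test. Hk2 was most like Sulf1, a heparan sulfatase (r = 0.994), and Il1f6 and Il1rn, genes of the interleukin-1 family (0.993 and 0.99). Pfkp was most like Kcnk1, a potassium channel (0.985), Plpp5 (0.975) and Ptpn12 (0.974). Pkm was most like Tnk1, a tyrosine kinase (0.986), Ap1m2, an epithelial clathrin adaptor subunit (0.983), and Litaf (0.982). Il1rn read 47.3 FPKM in CKD mouse 2, the mouse with the highest Hk2, and 0.0625 to 0.327 in control mice.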

How the data were processed

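Per the labels and the study's methods, the authors made stranded mRNA libraries from the whole kidneys of 12 mice, read them from 1 end and tested read counts with DESeq2. The submitters' processing notes name bcl2fastq 2.19, STAR 2.5.2, Cufflinks 2.1.1 and GRCm38. The deposited unit is FPKM per gene and mouse, normalized by the authors, so no count test was made. The annotation release is not given in the sources used here, and 30 failed estimates were set to missing. Of the rows matched to GENCODE M21, 99.9% overlapped the gene.

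Genes reaching 1 FPKM in 4 or more mice (13148) were fitted as log2(FPKM + 1) with limma 3.58.1 (R 4.3.3, variance trend), all groups in 1 fit, two-sided, with Benjamini-Hochberg adjustment over all genes and a threshold of 0.05. The study's methods for RNA sequencing give a cutoff of 0.5. Isoform shares were tested by exact permutation over mice with numpy 2.4.6. Alternatives were median-of-ratios rescaling, quantile normalization, a pseudocount of 0.1, no filter or a mean of at least 5 FPKM, array weights, no trend, 2-group fits, and leaving out mice. Mice of a group differed by a median of 0.124 to 0.413 on the log2 scale, so each counts as 1 sample. No batch is labelled. Depth was estimated from 3950 genes with 1 transcript over 1500 bases.

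The 10 genes and all lists were chosen with earlier results of these data known. Named were the 10 genes, their family members, up to 20 other pathway genes with the largest difference among those called in any comparison, the highest genes of each marker list, and the 3 genes most alike for each of 3 members. 1 gene of the pathway list, and what rests on it, is not reported here. Acta1 of the muscle list was not matched, and Itgam, with 2 rows, was read from the higher one.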

Additional observations from a re-analysis of the deposited data

Results flagged for a closer look

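In 48 groups of 4 mice (FPKM of the 10 genes and shares of 6 families), the gap between the most extreme mouse and the next exceeded Dixon's 95% critical value for 4 samples in 2, where chance alone flags about 1 group in 20. The Pfkl level of CKD mouse 3 was 27.4 FPKM, while the other 3 CKD mice read 19.2 to 19.6. The Pkm share of pyruvate kinase FPKM was 93.1% in CKD+Fe mouse 4, while the other 3 CKD+Fe mice were at 89.6% to 90.0%. What sets these mice apart was not tested.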

How the results depend on the processing

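Hk2 and Pfkp kept their direction and call in CKD and in CKD+Fe as compared with control mice under every alternative run, as did Pkm except in CKD+Fe after rescaling. The scale between libraries decided most of the other calls, and leaving out single mice decided some. In CKD against control, 3 genes were called higher after rescaling (also without 3 mice placed apart, control mouse 3, CKD mouse 3 and CKD+Fe mouse 1, a combination chosen after seeing the data). The count called lower was 4 after rescaling, 5 with the 3 mice also left out, 0 with quantile normalization, 3 at the threshold of 0.5, and 2 with a pseudocount of 0.1, no filter, array weights, no trend or the 3 mice left out alone, and it ran from 1 to 2 when each mouse was left out in turn. Over all genes, 4075 were called lower in CKD mice after rescaling and 4703 with the 3 mice also left out. There were 3363 with quantile normalization, 2681 at the threshold of 0.5, and 1744 to 2165 under the other settings named. When each mouse was left out in turn there were 1520 to 1875. In CKD+Fe against control, 2 members were called higher and 4 lower after rescaling. With quantile normalization 1 (Ldha) was lower and Hk2, Pfkp, Aldoa, Eno1 and Pkm higher, where 2967 and 2605 of all genes were called. Leaving out each mouse in turn gave 3 to 6 members higher and 1 to 2 lower, where 6570 to 7187 and 1209 to 1433 of all genes were called. Of the other pathway genes, 3 (CKD) and 6 (CKD+Fe) were higher than control with quantile normalization, and 6 in each with a mean of at least 5 FPKM, where fewer genes were tested. With that filter 4799 (CKD) and 4749 (CKD+Fe) of 9702 genes were called higher. After rescaling, 17 of the other pathway genes were lower in CKD, also without the 3 mice. Between CKD+Fe and CKD mice, 0 to 1 shares did not overlap when each mouse was left out in turn (1 without CKD+Fe mouse 1), and 1 without the 3 mice.

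Directions turned as follows. After rescaling, CKD+Fe against control gave -0.07 for Hk1, -0.51 for Aldoa and -0.50 for Eno1, and with the 3 mice also left out -0.08 for Hk1 and -0.34 for Aldoa. In CKD against control, Pfkl was -0.28 (adjusted p = 0.0493) under both changes and Eno1 0.32 with quantile normalization. Of 570 alternative fits of single genes, 37 had another sign. The causes were not tested. The FPKM hold no absolute scale, and with 4 mice per group small differences cannot be detected. No paired analysis was possible because the labels number no replicates and tie no mouse of a group to one of another; the mouse numbers are names only.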
